A study of Setaria viridis with 5 samples.

Results

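A set of 168 genes, of 35214 in the deposited table, was high in both libraries of the bsl1 mutant and in 1 of the 3 wild-type libraries, and low in the other wild-type libraries. RNA had been sequenced from young inflorescences of the grass Setaria viridis, hand-dissected as primordia 15 days after sowing, with about 10 primordia in each pool and 1 library per pool. The 2 bsl1 libraries came from plants homozygous for bristleless1 (bsl1), a mutation found after N-Nitroso-N-methylurea mutagenesis. After a selfing, the mutant was crossed back to A10.1, the standard line of the species, and homozygous offspring were selfed once more. The labels record 1 such backcross, so other changes induced by the mutagen may remain in the line. The 3 wild-type libraries came from A10.1 itself, grown beside the mutant in 1 controlled chamber, with no treatment named for either genotype. The labels call the pools biological replicates and give no batch, dissection date or developmental score for any pool.

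Setaria inflorescences carry bristles, which are sterile modified branches, beside the spikelets that bear flowers. Each begins as a meristem, a group of dividing cells, that takes on the fate of bristle or spikelet as the inflorescence matures. The Bsl1 gene is known to encode a cytochrome P450 of the synthesis of brassinosteroids, the steroid hormones of plants, and its loss leaves the panicle without bristles. The cell composition of the pools was not measured, and in such bulk RNA fewer cells of a type and less RNA per cell cannot be told apart.

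Members were chosen by their abundance, given as CPM, the fragments of a gene per 1000000 fragments of its library. A member had at least 1 CPM in both bsl1 libraries and in wild-type replicate 1. The lowest of these 3 values was at least 2 times the higher of wild-type replicates 2 and 3. The lower bsl1 value was also below 1.5 times wild-type replicate 1, which keeps out genes whose 2 bsl1 libraries were both at least 1.5 times every wild-type library. That last limit removed 20 of the 188 genes that met the others. All 5 libraries entered the rule, so the levels below describe the members. The test of genotype further on was fitted over all genes, and its values for the members are also descriptions, since it uses the same counts. Of the 15907 genes that met the minimum and the limit, the members made up 1.06%. The files do not pair the identifiers with gene names, and 0 of the identifiers occurred in the gene table of another assembly, so no member is given a name or a function.

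The members ranged from about the minimum of the rule to 1568 CPM in the high libraries. Median abundance over the members was 8.50 CPM in bsl1 replicate 1 and 7.18 CPM in bsl1 replicate 2. In wild-type replicate 1 it was 7.52 CPM, against 2.32 CPM in wild-type replicate 2 and 1.65 CPM in wild-type replicate 3. The 17221 genes with at least 1 CPM in the 3 high libraries had medians of 25.5 and 25.9 CPM in bsl1 and of 24.7, 24.8 and 23.6 CPM in wild-type replicates 1, 2 and 3. The members were thus weaker than the expressed genes at large, whose medians were nearly level across the libraries. Summed over members, bsl1 replicates 1 and 2 held 5733 and 5043 CPM, and wild-type replicates 1, 2 and 3 held 5916, 1926 and 1531 CPM. A single gene supplied 26.5% of the sum in wild-type replicate 1. Without it the sums were 4196 and 3587 CPM in bsl1, and 4348, 1234 and 1021 CPM in wild-type replicates 1, 2 and 3, so the order of the high and low libraries was the same.

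**Figure D1:**
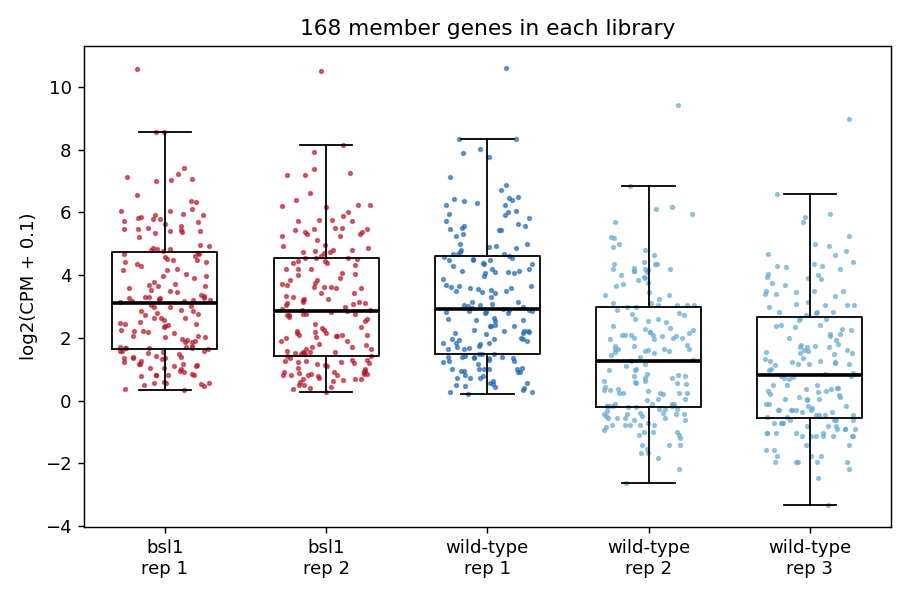
Each point is 1 of the 168 member genes, on the log2(CPM + 0.1) scale, in the 2 bsl1 and 3 wild-type libraries. Boxes span the middle quartiles with the median as a bar, and whiskers reach the last points within 1.5 box lengths. The bsl1 libraries (medians of 8.50 and 7.18 CPM) lie level with wild-type replicate 1 (7.52 CPM), while wild-type replicates 2 and 3 lie lower at 2.32 and 1.65 CPM; this gap is what the rule selected.

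The libraries in which the members were low also had the smallest totals. Totals were 49162793 and 34069429 fragments in bsl1 replicates 1 and 2, and 44739001, 32946287 and 25393087 in wild-type replicates 1, 2 and 3. The difference in total was small between bsl1 replicate 2, where the members were high, and wild-type replicate 2, where they were low. The members rested on a median of 418 and 244.5 fragments per gene in bsl1, and of 336.5, 76.5 and 42 fragments in wild-type replicates 1, 2 and 3. No member had fewer than 38 fragments in a high library, while 9 members were under 10 fragments in wild-type replicate 2 and 22 in wild-type replicate 3. One member, with 155 and 42 fragments in bsl1 and 157, 19 and 0 in wild-type replicates 1, 2 and 3, was undetected in the last of these, where 3 fragments would correspond to 0.118 CPM. When all libraries were thinned at random to the smallest total, 172 genes met the rule and 150 of them were members of the original set. Thinning leaves the expected CPM of a gene as it was, so this count cannot decide the part of depth, which was not tested.

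Most members lay close to the threshold, and a small group stood far above it. The ratio of the lowest high library to the higher low library had a median of 2.40, with quartiles of 2.16 and 3.15 and a maximum of 14.0. It was below 2.5 for 101 members, at least 3 for 46, at least 4 for 17 and at least 10 for 2. The member just inside the threshold, at a ratio of 2.002, had 5.86 and 4.31 CPM in bsl1, and 7.38, 2.16 and 1.69 CPM in wild-type replicates 1, 2 and 3. The gene just outside, at 1.998, had 23.1 and 22.1 CPM in bsl1, and 24.7, 11.1 and 9.53 CPM in wild-type replicates 1, 2 and 3. The numbers of genes were equal on both sides of it, with 31 members at ratios from 2 to 2.1 and 31 other genes from 1.9 to 2. At ratios from 1.5 to 2 there were 315 genes, so the threshold passes through a continuous slope of genes and not between separate populations.

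The 17 members with a ratio of at least 4 were of low to moderate abundance. Their medians were 7.85 and 4.55 CPM in bsl1, and 5.79, 0.728 and 0.354 CPM in wild-type replicates 1, 2 and 3, and none exceeded 43.3 CPM in any library. Near silence in the low libraries was therefore the common form of a large ratio. The 7 members with at least 100 CPM in every high library had smaller gaps, with a median ratio of 2.104. Their medians were 172 and 169 CPM in bsl1, and 260, 69.4 and 58.0 CPM in wild-type replicates 1, 2 and 3. These abundant genes remained well expressed in the low libraries, at 30.3 CPM or more.

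Identifiers are printed for 4 members, taken as the most abundant and the widest in ratio among the 82 members with a bsl1 mean above wild-type replicate 1 and among the 86 with it below. The chromosome is read from the identifier of the v1.1 annotation, and positions in bases are not given. Sevir.5G127000, on chromosome 5, had 378 and 285 CPM in bsl1, against 218, 69.4 and 62.0 CPM in wild-type replicates 1, 2 and 3. It was the most abundant member of the first kind, and its libraries descended in steps, with wild-type replicate 1 between bsl1 and the other wild-type pools. Sevir.9G520300, on chromosome 9, had the widest gap of all members, at a ratio of 14.0. It had 17.8 and 14.9 CPM in bsl1, against 11.1, 0.789 and 0.591 CPM in wild-type replicates 1, 2 and 3, from 873, 507, 495, 26 and 15 fragments. Wild-type replicate 1 was again below both bsl1 libraries but far nearer to them than to its own group.

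Sevir.3G419300, on chromosome 3, was the most abundant member. It had 1537 and 1456 CPM in bsl1, against 1568, 692 and 510 CPM in wild-type replicates 1, 2 and 3. The 3 high libraries were nearly level, and the gene was still abundant in both low pools. Sevir.1G343400, on chromosome 1, had 9.42 and 7.54 CPM in bsl1, against 8.81, 0.728 and 0.433 CPM in wild-type replicates 1, 2 and 3. Its wild-type replicate 1 fell between the bsl1 libraries, and its ratio of 10.4 was the second widest of the members. The spread within wild-type could exceed its mean. Sevir.9G520300 averaged 16.3 ± 2.03 CPM in bsl1 (SD, n = 2) and 4.15 ± 5.99 CPM in wild-type (SD, n = 3), and Sevir.1G343400 averaged 8.48 ± 1.33 CPM in bsl1 and 3.32 ± 4.75 CPM in wild-type.

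**Figure D2:**
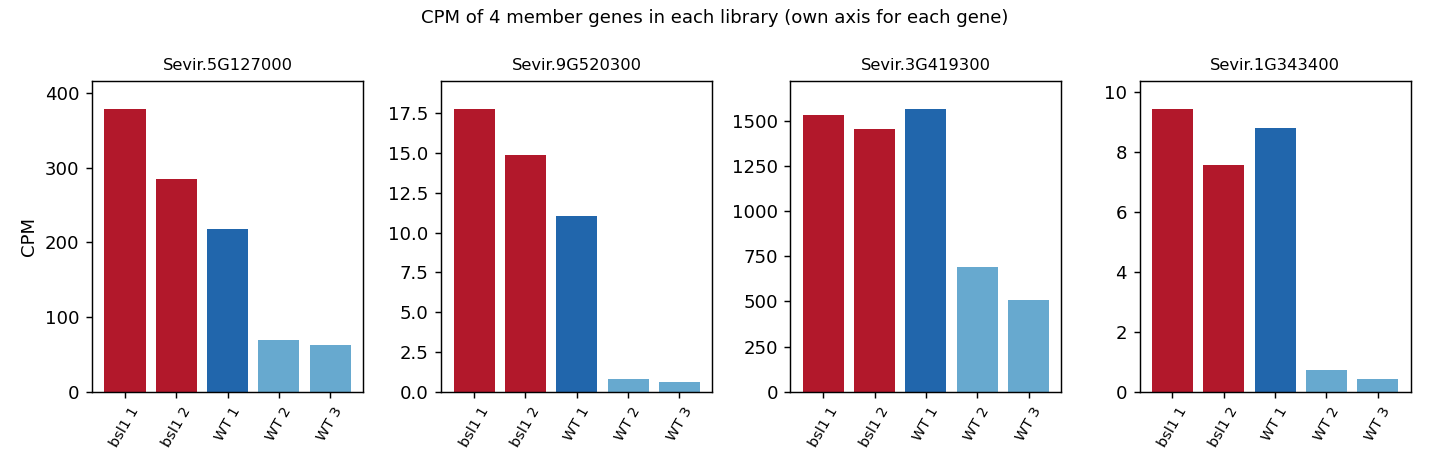
Bars give the CPM of 4 member genes in each library, bsl1 in red and wild-type in blue (WT, with replicates 2 and 3 in the lighter shade), each gene on its own axis from 0. Wild-type replicate 1 stands with bsl1 in every panel, from 8.81 CPM for Sevir.1G343400 to 1568 CPM for Sevir.3G419300.

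Within the high libraries, the mutant pools and wild-type replicate 1 had no common order. The bsl1 mean exceeded wild-type replicate 1 for 82 of the 168 members (48.8%) and was below it for 86. Over the 17221 expressed genes the bsl1 mean was above in 60.1%. The median log2 ratio of the bsl1 mean to wild-type replicate 1 was -0.01 over the members (SD 0.56 across genes) and 0.07 over the expressed genes. The rule bounds this ratio from above, so a lower share among members was partly set by the choice. With TMM factors, which scale libraries by the bulk of their genes, the members' count above was 78 and the median -0.07.

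The absolute distance between bsl1 and wild-type replicate 1 was larger for the members than for expressed genes, and so was the distance between the mutant pools. The median absolute log2 difference was 0.41 between bsl1 replicate 1 and wild-type replicate 1 and 0.29 between bsl1 replicate 2 and wild-type replicate 1. Over the expressed genes these medians were 0.19 and 0.21. Between the bsl1 libraries themselves it was 0.28 for the members and 0.09 for the expressed genes. Among the members, wild-type replicate 1 was thus about as far from bsl1 replicate 2 as the mutant pools were from each other. It was farther from bsl1 replicate 1. Over the expressed genes it was farther from both mutant pools than these were from each other. The rule limits the lower bsl1 value against wild-type replicate 1, so the members' distances were partly set by the choice. Against wild-type replicates 2 and 3, wild-type replicate 1 was higher by medians of 1.79 and 1.99 on the log2 scale. The members and the expressed genes were not matched for abundance. Their medians in the high libraries were 7.18 to 8.50 CPM and 24.7 to 25.9 CPM. The part of abundance in these distances was not tested.

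Both bsl1 libraries were above wild-type replicate 1, and so above every wild-type library, for 68 members (40.5%). Among the expressed genes, 18.4% had both bsl1 libraries above every wild-type library, but the members were already chosen to exceed the other wild-type pools. Both bsl1 libraries were below wild-type replicate 1 for 67 members, and for 33 it lay between them. Over the expressed genes, both bsl1 libraries were above wild-type replicate 1 in 51.7%, both below in 32.9% and on either side in 15.4%, where the members had 40.5%, 39.9% and 19.6%. The 1.5-fold limit of the rule applied to the members and not to the expressed genes. The difference in these shares was therefore partly set by the choice. With TMM factors the members' counts were 56 above and 73 below. The bsl1 mean was within 1.5-fold of wild-type replicate 1 for 122 members. In 27 members wild-type replicate 1 was at least 1.5 times the bsl1 mean, with medians of 8.99 and 8.10 CPM in bsl1 and 11.8, 3.00 and 1.61 CPM in wild-type replicates 1, 2 and 3. In 19 members the bsl1 mean was at least 1.5 times wild-type replicate 1, with medians of 11.3 and 6.99 CPM in bsl1 and 5.79, 1.09 and 1.02 CPM in wild-type replicates 1, 2 and 3. The second group had the wider gap to the low pools, at a median ratio of 3.09, against 2.23 in the first.

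The 2 mutant pools did not agree equally well on all members. bsl1 replicate 1 was higher than bsl1 replicate 2 for 104 of the 168 members (61.9%), but for 43.6% of the expressed genes. In 11 members it was at least 2 times as high, and no member was 2-fold apart the other way. Over the expressed genes, 102 were at least 2-fold apart in either direction (0.592%). Of these, 91 were higher in bsl1 replicate 1 (0.528% of the expressed genes), so most lay on that side there as well. The medians of the 11 members were 6.08 CPM in bsl1 replicate 1 and 2.17 CPM in bsl1 replicate 2, and 2.503, 0.820 and 0.512 CPM in wild-type replicates 1, 2 and 3. The rule asks only the lower bsl1 value to stay below 1.5 times wild-type replicate 1, which lets such genes in. Wild-type replicate 1 was above bsl1 replicate 2 in 5 of them and above bsl1 replicate 1 in 1.

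The low libraries also differed from each other. Wild-type replicate 3 was below wild-type replicate 2 for 113 of the 168 members (67.3%), against 52.4% of the expressed genes. The median log2 ratio of wild-type replicate 3 to wild-type replicate 2 was -0.26 over the members and -0.01 over the expressed genes. In 24 members (14.3%) wild-type replicate 3 was at most 0.5 times wild-type replicate 2, a share that was 2.70% over the expressed genes. The opposite held for 3 of the 168 members. Of the 17221 expressed genes, 465 lay the first way and 94 the opposite way, so most lay on the first side there as well. The rule used only the higher of these libraries, so their order was not fixed by it. Wild-type replicate 3 also had the smallest total and the most members under 10 fragments, and the part of depth in this order was not tested. The 24 members had medians of 8.59 and 6.35 CPM in bsl1, and of 7.80, 1.56 and 0.433 CPM in wild-type replicates 1, 2 and 3.

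**Figure D3:**
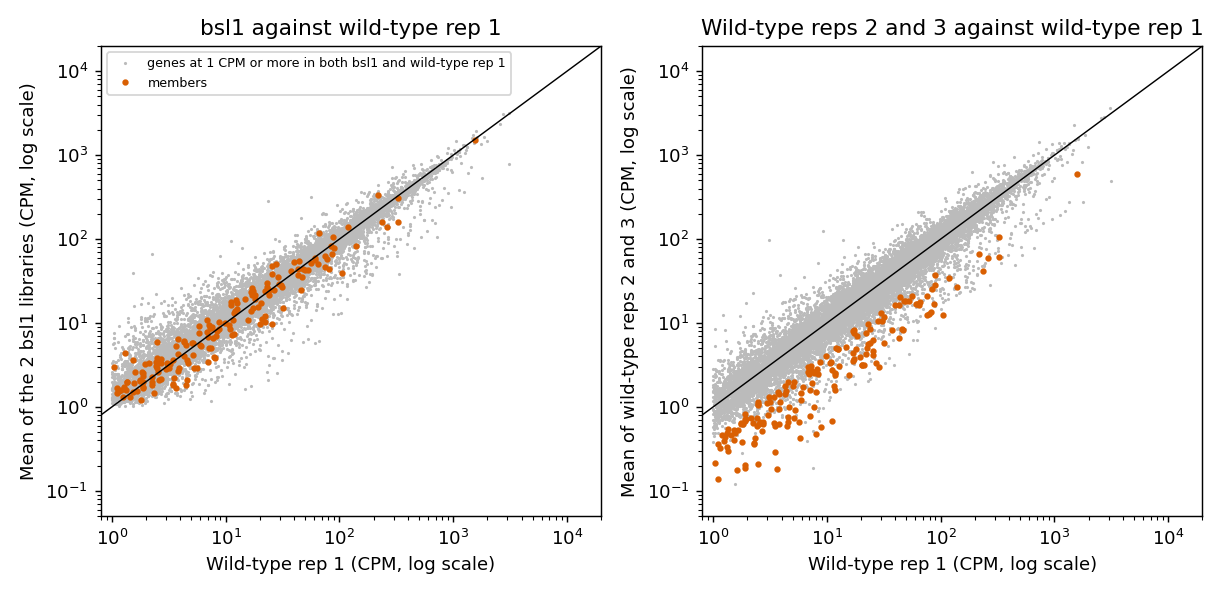
Members (orange) and all 17221 genes with at least 1 CPM in both bsl1 libraries and wild-type replicate 1 (grey), with the line of equality. On the left, the bsl1 mean lies on both sides of wild-type replicate 1, with 82 members above and 86 below; on the right, the mean of wild-type replicates 2 and 3 lies below wild-type replicate 1 for every member, as the rule requires.

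The members were a small part of the genes at least 2-fold higher in wild-type replicate 1 than in the other wild-type pools. In all, 861 genes had at least 1 CPM in wild-type replicate 1 and at least 2 times the higher of wild-type replicates 2 and 3, and the members were 19.5% of them. Both bsl1 libraries were above wild-type replicates 2 and 3 for 620 of the 861 genes (72.0%), but below the 2-fold gap or the minimum of 1 CPM in 432 of these. Both were at or below the higher of wild-type replicates 2 and 3 for 139 genes, and for 102 genes the bsl1 libraries fell on either side. Wild-type replicate 1 was at least 2-fold above both bsl1 libraries for 327 of the 861 genes, and for 5 of the members. Median abundance over the 861 genes was 9.01 and 8.01 CPM in bsl1, and 13.9, 4.61 and 2.60 CPM in wild-type replicates 1, 2 and 3. By these medians bsl1 lay between wild-type replicate 1 and the other wild-type pools. The comparison shares wild-type replicates 2 and 3 on both sides, so no overlap was tested.

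Wild-type replicate 1 was also nearer to bsl1 than to the other wild-type pools with the members left out. Over 17551 other genes detected in every library, with a mean of at least 1 CPM over all 5, the median absolute log2 difference from wild-type replicate 1 was 0.20 to bsl1 replicate 1 and 0.21 to bsl1 replicate 2. It was 0.26 to wild-type replicate 2 and 0.31 to wild-type replicate 3, the libraries with the smallest totals. Over the 17221 expressed genes, members included, it was 0.09 between the bsl1 libraries and 0.16 between wild-type replicates 2 and 3. There wild-type replicate 1 lay 0.19 and 0.21 from bsl1 replicates 1 and 2, and 0.26 and 0.31 from wild-type replicates 2 and 3. It was thus farther from every other library than the libraries of either pair were from each other. The part of depth in these distances was not tested. The mirror pattern, at least 1 CPM in wild-type replicates 2 and 3 and at least 2-fold above the other 3 libraries, was met by 19 genes.

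In the comparison of genotypes, edgeR's quasi-likelihood test of bsl1 over wild-type, fitted on all 5 libraries, called 0 members at an adjusted p under 0.05. Over all 20498 genes tested, 0.00976% were called higher (2 genes) and 0% lower, and all 168 members were among those tested. The smallest edgeR adjusted p among the members was 0.406. The fitted log2 fold had a median of 0.84 over the members, positive in 162, with a median standard error of 0.65. Over all tested genes the median log2 fold was -0.01 and the median standard error 0.19. The positive folds follow from the choice of members, since 2 of 3 wild-type libraries had to be low. The wide errors follow from it as well, since the third wild-type library had to be high. At an unadjusted p under 0.05 in edgeR, 11 members were higher in bsl1 (6.55%), against 7.61% of all tested genes. DESeq2 also called 0 members, with 23 of them (13.7%) higher at an unadjusted p under 0.05, against 7.21% of all genes, while it called 2.59% of all genes higher (531 genes) and 0.268% lower.

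The named members show the same. Sevir.5G127000 had a log2 fold of 1.45 ± 0.58 (standard error) in bsl1 over wild-type, at an edgeR adjusted p of 0.54. Sevir.9G520300 was at 1.88 ± 1.18 (edgeR adjusted p = 0.752). Sevir.3G419300 was at 0.64 ± 0.47 (edgeR adjusted p = 0.796). Sevir.1G343400 was at 1.26 ± 1.17 (edgeR adjusted p = 0.832).

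Leaving out wild-type replicate 1 changed these calls. Without it, edgeR called 122 of the 168 members higher in bsl1 and 0 lower, when 3.78% of 20269 tested genes were called higher (766 genes) and 1.25% lower. The members made up 15.9% of those higher calls. Their median log2 fold was then 1.70, against 0.01 over all tested genes. Members were required to be at least 2-fold higher in bsl1 than in the wild-type libraries that remain, so these calls are a description and no support for an effect of genotype. All 4 named members were called in that fit, with edgeR adjusted p-values from 0.00541 to 0.0227.

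The rule used neither the position nor the length of a gene. Members came from all 9 numbered chromosomes. Their share of the genes that met the minimum and the limit ran from 0.543% on chromosome 4 (7 of 1289 genes) to 1.42% on chromosome 3 (28 of 1971). Chromosome 9 held most members, 32 of 3025 genes (1.06%). Chromosomes 2 and 5 both stood at 1.29%, with 26 and 30 members, and chromosomes 1, 6, 7 and 8 at 0.818% to 0.990%.

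In the order of identifiers, 12 of the 168 members (7.14%), in 5 runs, had another member directly beside them, and 156 had none. Of the 173 genes directly beside a member that met the minimum and the limit, 12 (6.94%) were members, against 1.06% of all such genes, and no test was made of this. The longest run was of 4 consecutive genes on chromosome 2. Its first gene had 26.1 and 21.7 CPM in bsl1, and 22.3, 8.47 and 6.97 CPM in wild-type replicates 1, 2 and 3. The second had 2.16 and 1.70 CPM in bsl1, and 1.56, 0.637 and 0.354 CPM in the wild-type libraries in the same order. The third had 1.34 and 1.32 CPM in bsl1, and 1.45, 0.577 and 0.354 CPM in wild-type. The fourth had 6.61 and 7.10 CPM in bsl1, and 6.97, 2.91 and 2.09 CPM in wild-type. The 4 genes had nearly the same profile at levels from 1.34 to 26.1 CPM in bsl1 replicate 1, with ratios of 2.27 to 2.56, and whether they are separate transcripts was not tested. In a pair on chromosome 3, one gene had 141 and 97.7 CPM in bsl1 and 66.4, 24.7 and 10.5 CPM in wild-type, and its neighbour 2.87 and 2.35 CPM in bsl1 and 2.53, 0.728 and 0.512 CPM in wild-type.

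The same 173 genes, members among them kept in, had a median log2 ratio of 0.06 between the mean of the 3 high libraries and the mean of wild-type replicates 2 and 3. This median was 0.03 over all genes that met the minimum and the limit, and 1.87 over the members.

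Members had a short implied length and weak expression more often than the rest. Length was read as the implied length, fragments divided by FPKM and library total, where FPKM is the authors' value of fragments per kilobase of transcript per 1000000 fragments. Averaged over the 3 high libraries, it had a median of 1371 bases over the members and 1945 bases over the expressed genes. Of genes with an implied length under 1000 bases, 2.27% were members (56 of 2464), against 1.34% from 1000 to 2000 bases, 0.593% from 2000 to 3000 bases and 0.355% (14 of 3946) above. By the lowest CPM of the high libraries, members were 2.88% of genes from 1 to 5 CPM, 1.09% from 5 to 20 CPM, 0.553% from 20 to 100 CPM and 0.320% at 100 CPM or more. Both trends held together. From 1 to 5 CPM, the share was 4.76% under 1000 bases and 0.966% at 2000 bases or more, and above 20 CPM it was 0.993% and 0.255%.

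**Figure D4:**
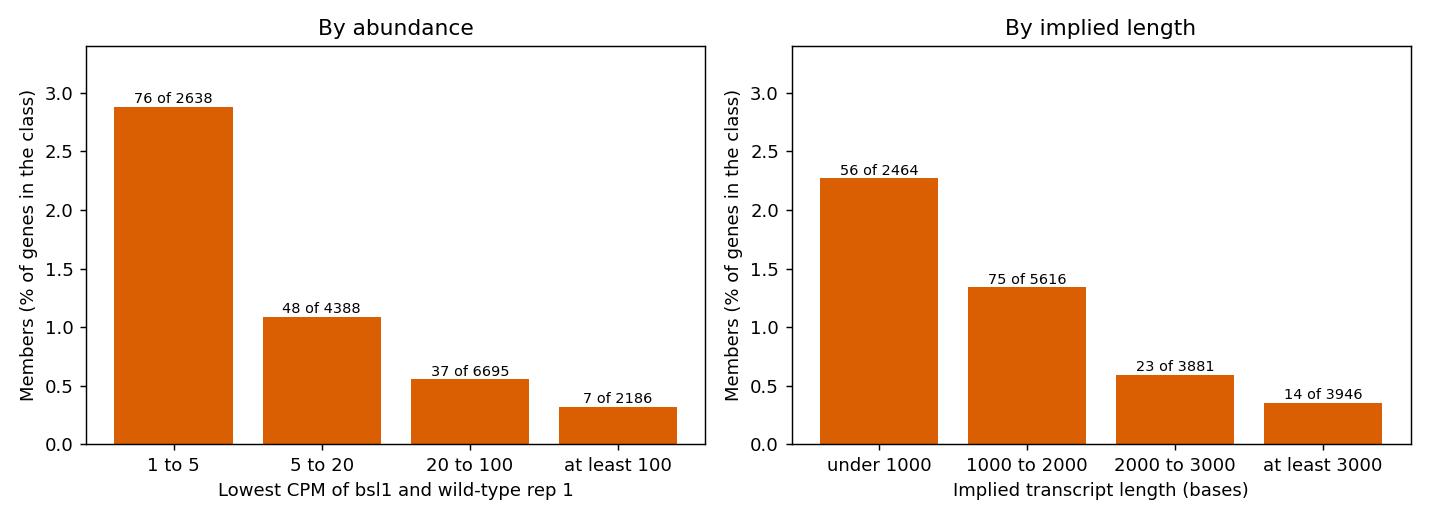
Bars give the members as a percentage of all genes that met the minimum and the limit, by the lowest CPM of bsl1 and wild-type replicate 1 (left) and by implied length (right), with counts above. The share fell from 2.88% to 0.320% with abundance and from 2.27% to 0.355% with length.

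Short implied lengths were not particular to the members. The 19 genes of the mirror pattern had a median of 1219 bases. The 237 genes at least 2-fold higher in every bsl1 library than in every wild-type library, at 1 CPM or more, had a median of 1338 bases. The part of length and of counting noise in weak genes in the pattern was not tested.

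The size of the gap depended on whether fragments or FPKM were read. The implied length, which restates the ratio of these scales, differed between libraries for the same gene. It also takes in any scaling of libraries within the authors' FPKM, which is not given. For the members, the median ratio of implied length in wild-type replicate 2 to that in wild-type replicate 1 was 0.679, and 0.817 for the expressed genes. For wild-type replicate 3 over wild-type replicate 1 these medians were 1.18 and 0.912. The ratios for the members were close to those of the 19 mirror genes, at 0.662 and 1.17, and of the 237 genes higher in bsl1, at 0.660 and 1.14. On FPKM, 47 members kept a 2-fold gap to both low libraries, a pattern found in 0.325% of the expressed genes, and 154 kept any gap at all, against 4.84% of the expressed genes. Both shares describe the same fragments that chose the members. The loss was larger against wild-type replicate 2 than against wild-type replicate 3. Implied length also shifted in a mutant library. Its median over the members was 1545 bases in bsl1 replicate 2, against 1329 in bsl1 replicate 1 and 1316 in wild-type replicate 1. Over the expressed genes these medians were 1878, 1995 and 1918 bases. The part of each library in the loss was not tested. The lowest high library was at least 2-fold above wild-type replicate 2 on FPKM in 54 members and above wild-type replicate 3 in 150. The median ratio to wild-type replicate 2 was 1.72 on FPKM and 2.57 on CPM, and that to wild-type replicate 3, over the 167 members detected there, was 3.51 on FPKM and 3.22 on CPM.

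The most abundant member shows how far these scales can part. Sevir.3G419300 had FPKM values of 1758 and 463 in bsl1, and of 1771, 1190 and 81.0 in wild-type replicates 1, 2 and 3. On FPKM bsl1 replicate 2 was therefore below wild-type replicate 2, where the CPM of this gene were 1456 in bsl1 replicate 2 and 692 in wild-type replicate 2. Its implied length was 874 and 3142 bases in bsl1, and 885, 582 and 6301 bases in wild-type replicates 1, 2 and 3. The other named members kept the pattern on both scales. Sevir.9G520300 had FPKM values of 7.90 and 7.31 in bsl1, and 5.17, 0.452 and 0.305 in wild-type replicates 1, 2 and 3. Sevir.1G343400 had 5.48 and 4.52 FPKM in bsl1, and 5.30, 0.598 and 0.192 FPKM in wild-type. Sevir.5G127000 had 66.0 and 67.7 FPKM in bsl1, and 40.2, 14.3 and 14.8 FPKM in wild-type, so its mutant pools came level on this scale.

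For 14 members no gap was left on FPKM. They had a median implied length of 978 bases, and median FPKM values of 20.8 and 8.05 in bsl1 and of 16.4, 10.2 and 2.18 in wild-type replicates 1, 2 and 3. Their median CPM were 9.14 and 8.41 in bsl1 and 7.06, 3.10 and 2.01 in wild-type replicates 1, 2 and 3.

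**Figure D5:**
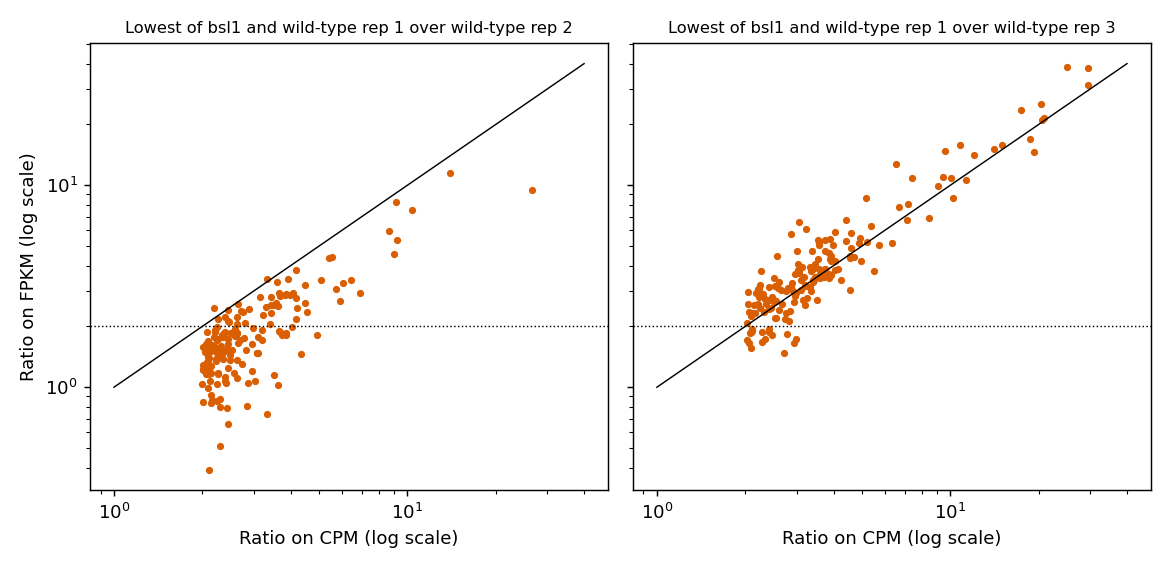
Each point is a member gene, with the ratio of its lowest high library to wild-type replicate 2 (left) or wild-type replicate 3 (right) on CPM (x axis) and on FPKM (y axis), both on log scales; the solid line marks equality, the dotted line a 2-fold gap on FPKM, and the member at 0 in wild-type replicate 3 is left out on the right. Against wild-type replicate 2 most points lie below the line of equality, with 54 of 168 at 2-fold or more, while against wild-type replicate 3 150 of 168 members reach 2-fold.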

How the data were processed

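The deposited table held, per gene and library, estimated fragment counts and FPKM. Per the submitters' processing notes, the authors used Cuffdiff 2.2.1 and TopHat2 2.1.0. Genome build, strandedness in counting and the FPKM scaling: not given in the sources used here. Polyadenylated RNA and a directional library kit were used, per the labels' protocols. From the deposited estimated counts, CPM was computed on column sums, without TMM factors, and members were chosen by the rule given above. The members and lists were chosen with earlier results of these data known. For the genotype test, estimated counts, rounded to integers, were filtered with filterByExpr (minimum count 10) and compared with edgeR 4.0.16 in R 4.3.3 (TMM factors 0.981 to 1.03, quasi-likelihood test, Benjamini-Hochberg adjustment over 20498 genes, threshold 0.05). DESeq2 1.42.0 on the same genes and limma 3.58.1 on log2(FPKM + 1) were alternatives. In simulated data of 20252 genes, the edgeR test called 16.0% of 100 genes changed 2-fold, 81.0% of 100 changed 4-fold and 11 unchanged genes. The simulated counts were drawn independently for each library, so no pool shifted many genes together. The changed genes were picked at random, and recovery for genes like the members was not measured. P-values weigh the difference between genotypes against the spread between pools. The rule for named genes split the members by bsl1 mean against wild-type replicate 1 and took in each part the most abundant member and the one with the widest ratio, with at least 10 fragments in the higher low library. Gene lists and cell type markers could not be applied without gene names, so the tissue label was not checked against markers. The labels do not tie equal replicate numbers of the genotypes to a common batch or day.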

Additional observations from a re-analysis of the deposited data

How the results depend on the processing

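The number of members depended on the thresholds and on the unit. The 168 genes became 158 with TMM factors, 159 with median-ratio factors and 172 after thinning, of which 157, 156 and 150 were among the 168. They became 92 with a minimum of 5 CPM, 567 with no minimum level, 17 at 4-fold, 483 at 1.5-fold and 49 on FPKM, of which 39 were among the 168. With 1 library left out of the rule, fewer libraries had to agree. The count was then 193 without bsl1 replicate 1 and 198 without bsl1 replicate 2. It was 632 without wild-type replicate 2 and 225 without wild-type replicate 3. Without wild-type replicate 1 the rule is not defined. Over all genes, the 2 edgeR calls became 52 without a filter, 586 in DESeq2, 6 in limma on FPKM and 0 with the replicate block, and 0 to 1020 with 1 library left out, the highest without wild-type replicate 1. The members called stayed at 0 except for the fits with 1 library left out, which gave 0 to 122, the highest again without wild-type replicate 1. No label pairs same-numbered pools, and their deviations from group means correlated at 0.153 and -0.004. The 2 bsl1 pools deviate from their mean by equal and opposite amounts. These correlations are therefore not independent of each other and cannot decide whether pools were paired. The median genotype log2 fold over the members was positive in all alternatives, from 0.53 without wild-type replicate 3 to 1.70 without wild-type replicate 1. The median log2 ratio of the bsl1 mean to wild-type replicate 1 moved from -0.0095 to -0.073 with TMM and -0.087 with median-ratio factors, and that of wild-type replicate 3 to wild-type replicate 2 from -0.26 to -1.09 on FPKM. For the named members, each kept its sign and its side of the threshold in 10 of 11 alternatives and was called in 1, the fit without wild-type replicate 1. Thinning in the genotype fit, the scalings of those 2 medians and the filter of a mean of 1 CPM over all 5 libraries behind the distances from wild-type replicate 1 were chosen after seeing the data. With at least 1 CPM in the 3 high libraries instead, those distances were 0.19 and 0.21 to bsl1 and 0.25 and 0.30 to wild-type replicates 2 and 3. Where values moved, the cause was not tested.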
